A study of Mus musculus with 21 samples.

Results

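Besides the peptides best known for setting food intake, the hypothalamus makes many others, and the precursor genes of 10 of these were followed across a change of diet. They are *Gal*, *Nts*, *Tac1*, *Penk*, *Cck*, *Vip*, *Adcyap1*, *Grp*, *Pnoc* and *Nmb*, and they were taken by symbol from the count table. All 10 were found among its 21654 genes. RNA came from punches of the ventral hypothalamus (VH) of male C57/B6J (C57BL/6J) mice, bought at 12 to 14 weeks of age, and mRNA from 2 mice of a group was pooled in equal amounts for each library. RC NoDS mice (5 libraries) ate regular chow (RC) throughout, and HFD NoDS mice (5 libraries) ate high-fat diet (HFD) throughout. Mice of RC → HFD (6 libraries) and HFD → RC (5 libraries) were moved to the other diet for the last week. Before collection at ZT 6, in the light phase, mice of every group were kept awake for 3 hours, so that all values belong to mice that had lost sleep.

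A neuropeptide is cut from a larger precursor by convertases in secretory vesicles, is released along with a fast transmitter and acts through G protein-coupled receptors on nearby or distant cells. Because each precursor is made by restricted groups of neurons, its level in a punch of tissue depends both on how many of those neurons the punch holds and on how much RNA each makes. In the hypothalamus these peptides are known for roles in feeding, reward, body temperature, daily rhythm, arousal and pituitary control.

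The deposited values are reads counted per gene after every library had been brought to a common depth, and they summed to between 16380781 and 16390598 per library. Each precursor was detected, and together they took between 5583 and 8034 reads of a library. Genes of the punched nuclei were read beside them. *Pomc* of the arcuate nucleus averaged 8304 reads and lay between 5012 and 11836, and *Nr5a1*, which marks the ventromedial nucleus, averaged 1250 reads. The libraries thus carried arcuate and ventromedial transcripts. The study had kept punches by their *Agrp* and *Pomc* relative to *Hcrt*, so high *Pomc* is no independent check of the tissue label. Lateral hypothalamic *Pmch* and *Hcrt* were present too, at 1078.5 and 253.95 reads on average.

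Per kilobase of exon, *Gal* was the most abundant of the precursors, at 2085 reads per kb over the 21 libraries, which placed it above 98.3% of all genes in the table. *Tac1* (1270 reads per kb), *Penk* (949.6) and *Adcyap1* (710.2) came next, each above at least 93.3% of genes. *Cck* (243.9 reads per kb) and *Pnoc* (231.8) lay close together, as did *Nts* (149.9) and *Nmb* (139.1), while *Grp* (47.0) and *Vip* (30.1) were lowest. Within single libraries *Gal* ranked 1 or 2, *Tac1* ranked between 1 and 4, and *Cck* ranked anywhere from 4 to 9, so neighbours in this order often changed places between libraries. *Vip* was last on average, yet it ranked as high as 5 in the library with the most of it. With the length of the longest transcript in place of all exons, *Nts* and *Nmb* exchanged ranks 7 and 8.

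*Gal* encodes galanin, a peptide that acts mostly to inhibit neurons and promotes the eating of fat when given to rodents. RC NoDS libraries had 1248, 1220, 1158, 1567 and 1397 *Gal* reads, and RC → HFD libraries ranged from 1240 to 1685 with a median of 1475. HFD → RC libraries had 1059, 1812, 818, 1735 and 1221 *Gal* reads, and HFD NoDS libraries had 1809, 1402, 2061, 1976 and 1817. HFD NoDS was thus the group with the most *Gal*: 4 of its 5 libraries exceeded every library of RC NoDS, and the same number exceeded every library of RC → HFD, but its replicate 20 fell among both. HFD NoDS averaged 1813 ± 253 reads (SD, n = 5) and RC → HFD 1480 ± 181 (n = 6), whereas the groups on RC at collection, RC NoDS and HFD → RC, averaged 1318 ± 165 (n = 5) and 1329 ± 431 (n = 5). The HFD → RC libraries were split, with replicates 14 and 16 within the range of HFD NoDS and replicate 15 below every other library of the study.

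*Tac1* encodes the tachykinins substance P and neurokinin A. Its reads were 2188, 1269, 1305, 1314 and 1267 in RC NoDS, spanned 1000 to 1631 (median 1324) in RC → HFD, and were 1592, 758, 883, 1343 and 1665 in HFD → RC and 1237, 762, 1470, 1152 and 1274 in HFD NoDS. RC NoDS replicate 1 stood far above the rest, and the lowest values came from replicates 14, 15 and 20, which belong to HFD → RC and HFD NoDS. The groups overlapped throughout.

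*Penk* encodes proenkephalin, the source of the enkephalins, which act on delta and mu opioid receptors. RC NoDS libraries had 1685, 1281, 1395, 1522 and 1418 *Penk* reads, RC → HFD libraries had 1183 to 1765 (median 1644), HFD → RC libraries had 1957, 1040, 1723, 1462 and 1716, and HFD NoDS libraries had 1547, 1552, 1870, 1669 and 1487. Group means stayed between 1460 and 1625 reads, and the widest spread was within HFD → RC, where 1957 was 1.88 times 1040. The annotation places a noncoding RNA, *A830012C17Rik*, over *Penk* on the other strand, with 2.57 reads on average, and the reads of both are uncertain to the extent that the counting did not use strand.

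*Pnoc* encodes prepronociceptin, the precursor of the ligand of the nociceptin receptor. Its reads were 556, 371, 448, 482 and 507 in RC NoDS, 354 to 488 (median 423.5) in RC → HFD, 432, 343, 412, 405 and 381 in HFD → RC, and 454, 377, 423, 577 and 528 in HFD NoDS. It was the steadiest of the precursors, with means of 472.8 ± 69.2 (SD, n = 5), 420.7 ± 49.6 (n = 6), 394.6 ± 34.1 (n = 5) and 471.8 ± 80.5 (n = 5) in that order. Both switched groups thus had lower means than both unswitched groups, by less than the range within RC NoDS.

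*Adcyap1* encodes PACAP, a peptide of the secretin family that raises cyclic AMP and reduces food intake when given to the ventromedial nucleus. RC NoDS libraries had 1210, 1370, 1707, 858 and 1037 *Adcyap1* reads, RC → HFD libraries had 1146 to 1712 (median 1604), HFD → RC libraries had 1877, 1193, 2172, 1656 and 1641, and HFD NoDS libraries had 1523, 2106, 1540, 897 and 1203. The mean was 1708 ± 359 reads (SD, n = 5) for HFD → RC, 1526 ± 207 (n = 6) for RC → HFD, 1454 ± 450 (n = 5) for HFD NoDS and 1236 ± 325 (n = 5) for RC NoDS. RC NoDS had the lowest mean and held the lowest library, and 2 of the 5 HFD → RC libraries exceeded all RC NoDS libraries.

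*Vip* belongs to the same family and encodes vasoactive intestinal peptide, which in the hypothalamus is best known from neurons of the suprachiasmatic nucleus. Its reads were 18, 12, 7, 4 and 5 in RC NoDS, 0 to 160 (median 6.0) in RC → HFD, 14, 29, 89, 0 and 0 in HFD → RC, and 39, 405, 1, 123 and 12 in HFD NoDS. Few libraries carried most of the *Vip* reads: HFD NoDS replicates 20 and 23, RC → HFD replicate 12 and HFD → RC replicate 15 had 405, 123, 160 and 89 reads, and 4 libraries had 0, which at this depth allows up to 3 reads. The 5 RC NoDS libraries were all low, and each other group held libraries both above and below that range.

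*Cck* encodes cholecystokinin, a satiety peptide of the gut that is also made in the brain. RC NoDS libraries had 134, 237, 153, 387 and 398 *Cck* reads, RC → HFD libraries had 58 to 242 (median 144.5), HFD → RC libraries had 420, 114, 42, 66 and 317, and HFD NoDS libraries had 70, 162, 234, 322 and 412. Values differed 10-fold within HFD → RC and 5.89-fold within HFD NoDS, which was more than any difference between group means (145.8 to 261.8 reads).

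*Nts* encodes neurotensin, which lowers body temperature and food intake when given to the brain. Its reads were 238, 193, 189, 127 and 155 in RC NoDS, 120 to 235 (median 157.5) in RC → HFD, 233, 125, 189, 178 and 261 in HFD → RC, and 127, 141, 240, 156 and 159 in HFD NoDS. Every group covered nearly the same range, from 120, 125 or 127 reads upward.

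*Grp* and *Nmb* encode gastrin-releasing peptide and neuromedin B, the bombesin-like peptides of mammals. *Grp* reads were 39, 63, 22, 61 and 25 in RC NoDS, 23 to 82 (median 37.5) in RC → HFD, 78, 56, 17, 69 and 78 in HFD → RC, and 75, 43, 42, 31 and 64 in HFD NoDS. *Nmb* reads were 143, 112, 102, 88 and 132 in RC NoDS, 72 to 182 (median 84.0) in RC → HFD, 97, 113, 109, 64 and 68 in HFD → RC, and 54, 125, 153, 173 and 132 in HFD NoDS. No group of libraries lay apart from another for either gene. *Nmb* overlaps *Sec11a* on the same strand, and *Sec11a* averaged 656.2 reads, so the reads of *Nmb* are uncertain to the extent that the counting could not separate the pair.

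**Figure D1:**
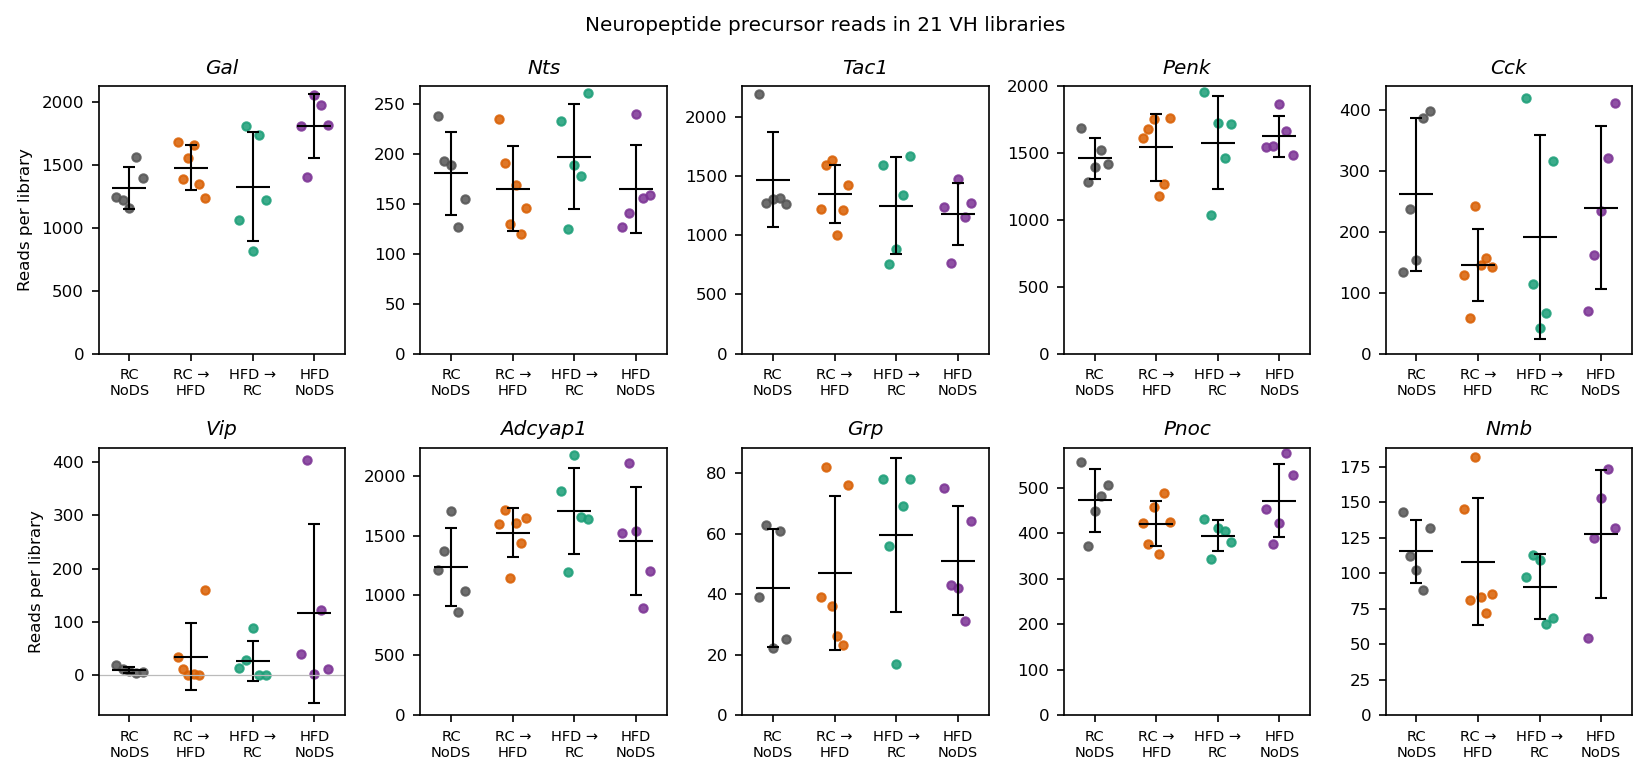
Reads per library of the 10 precursors in the 4 diet groups, with each point 1 library, horizontal bars at group means and whiskers of 1 SD (n = 5, 6, 5 and 5 libraries). Most groups overlap widely, *Gal* in HFD NoDS lies highest at 1402 to 2061 reads, and *Vip* is near 0 in most libraries but reaches 405.

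Differences between groups were tested with edgeR's quasi-likelihood test over all genes averaging at least 50 reads (High Filter), with Benjamini-Hochberg adjustment over these 12768 genes and a threshold of 0.15. Of the precursors, 8 of 10 passed this filter, and *Grp* (mean 49.8 reads) and *Vip* (mean 45.9) fell just under it. Their values come from the same fit over the 15884 genes averaging at least 5 reads (Low Filter). Each sequence of shares below follows the order of HFD NoDS against RC NoDS, HFD → RC against RC → HFD, RC → HFD against RC NoDS, HFD → RC against HFD NoDS, HFD → RC against RC NoDS, and HFD NoDS against RC → HFD. Several of these pairs share a group, so their values are not independent of each other.

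No precursor passed the threshold in any pair. Among all genes tested under the High Filter, edgeR called 0.0783%, 0.00783%, 0.0392%, 0.0705%, 0.282% and 0.0157% in the 6 pairs, so that 0 of 8 was the count that such shares would give for genes in general. At an unadjusted p under 0.05, the precursors past it were 1, 0, 0, 1, 1 and 0 of 8, beside 7.41%, 5.35%, 6.51%, 7.93%, 8.1% and 7.49% of all genes. Between the libraries of a pair without any overlap lay 0 of 8 precursors, beside 0.893%, 0.486%, 1.17%, 1.02%, 1.32% and 0.744% of all genes. *Vip* and *Grp* were not called under the Low Filter either, where 0.063%, 0.0126%, 0.0315%, 0.0252%, 0.157% and 0.0063% of genes were.

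The same held for the tests that join groups. Neither the test over all 4 groups, nor diet at collection (HFD minus RC), nor diet before the switch, nor the interaction of both called any of the 8 precursors, with 0.149%, 0.047%, 0.0705% and 0.0313% of all genes called. At an unadjusted p under 0.05 there were 1, 1, 0 and 2 precursors, beside 7.97%, 5.22%, 7.27% and 8.84% of genes. *Vip* and *Grp* were again not called under the Low Filter, where these tests called 0.126%, 0.0441%, 0.0693% and 0.0% of genes. Limma-voom also called 0 of 8 in each comparison, as did DESeq2 in 9 of 10. In RC → HFD against RC NoDS DESeq2 gave none of the 8 precursors an adjusted p. Over 80 tests of a precursor in a comparison, 7 had an unadjusted p under 0.05 with edgeR, as did 7 with limma-voom and 7 with DESeq2. The shares of all genes with limma-voom and DESeq2 are not given here. Counts from these tools, here and below, thus cannot be set beside genes in general.

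HFD NoDS against RC NoDS compares lasting HFD with lasting RC, and *Gal* had the smallest p among the precursors there. Its log2 fold change was 0.48 (SE 0.15, 95% interval 0.17 to 0.78), a 1.39-fold higher level in HFD NoDS, with an unadjusted p of 0.00364 by edgeR and an adjusted p of 0.64. It was positive in every setting run, between 0.43 and 0.55 with 1 library left out. *Penk* (log2 fold change 0.17, SE 0.13, adjusted p = 0.742), *Adcyap1* (0.26, SE 0.18, adjusted p = 0.736) and *Nmb* (0.16, SE 0.30, adjusted p = 0.904) had positive estimates with intervals that span 0. That of *Nmb* was 0.028 without HFD NoDS replicate 23, 0.35 without replicate 19 and 0.46 with the share of low genes at 0 as a covariate. For *Tac1* the log2 fold change was -0.30 (SE 0.19, adjusted p = 0.71), for *Nts* it was -0.11 (SE 0.23, adjusted p = 0.911), for *Cck* it was -0.12 (SE 0.47, adjusted p = 0.963) and for *Pnoc* it was 0.01 (SE 0.13, adjusted p = 0.986). Without HFD NoDS replicate 20 the estimate for *Adcyap1* was 0.075, and without RC NoDS replicate 3 it was 0.403. Without RC NoDS replicate 1 that for *Tac1* was -0.12. The estimate for *Cck* turned positive without HFD NoDS replicate 19 (0.12), RC NoDS replicate 5 (0.07) or RC NoDS replicate 6 (0.08). The median size of the log2 fold change was 0.17 over the 8 precursors and 0.11 over all genes.

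*Vip* had the largest estimate in that pair and the widest interval. Its log2 fold change under the Low Filter was 3.66 (SE 1.32, 95% interval 0.96 to 6.37), with an unadjusted p of 0.00963 by edgeR and an adjusted p of 0.737. In HFD NoDS replicates 19, 20 and 23 had more *Vip* than any RC NoDS library, whereas replicate 21 had 1 read and replicate 24 had 12. Without replicate 20 the estimate was 2.25, and limma-voom gave 1.95. For *Grp* it was 0.29 (SE 0.45, adjusted p = 0.929), and between 0.11 and 0.48 with 1 library left out.

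HFD → RC and RC → HFD are the switched groups, which the study set up to have like body weights but opposite diets and energy balance. No precursor had an unadjusted p under 0.05 in this pair, and their smallest p by edgeR was 0.25, for *Nts* (log2 fold change 0.25, SE 0.22, adjusted p = 0.9999). *Gal* had -0.16 (SE 0.14), *Nmb* -0.26 (SE 0.29), *Tac1* -0.11 (SE 0.18) and *Pnoc* -0.09 (SE 0.12), while *Adcyap1* had 0.16 (SE 0.17), *Penk* 0.03 (SE 0.12) and *Cck* 0.39 (SE 0.46). Under the Low Filter *Vip* had -0.37 (SE 1.15) and *Grp* 0.33 (SE 0.42). With 1 library left out *Gal* lay between -0.30 and -0.027, *Nmb* between -0.35 and -0.046, and *Pnoc* between -0.14 and -0.045. *Adcyap1* lay between 0.055 and 0.27, *Nts* between 0.14 and 0.38, and *Grp* between 0.19 and 0.57. The adjusted p was 0.9999 for each of the 8 precursors and 0.9995 for both others. The estimate for *Cck* was -0.12 without HFD → RC replicate 13, which alone held 420 reads, and that for *Vip* was 1.53 without RC → HFD replicate 12. The 95% intervals were narrow for *Penk* (-0.22 to 0.28) and *Pnoc* (-0.35 to 0.16). They were wide for *Cck* (-0.54 to 1.32), *Vip* (-2.72 to 1.97), *Grp* (-0.53 to 1.20) and *Nmb* (-0.84 to 0.33). A sizeable difference in any of these last genes could have gone undetected.

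**Figure D2:**
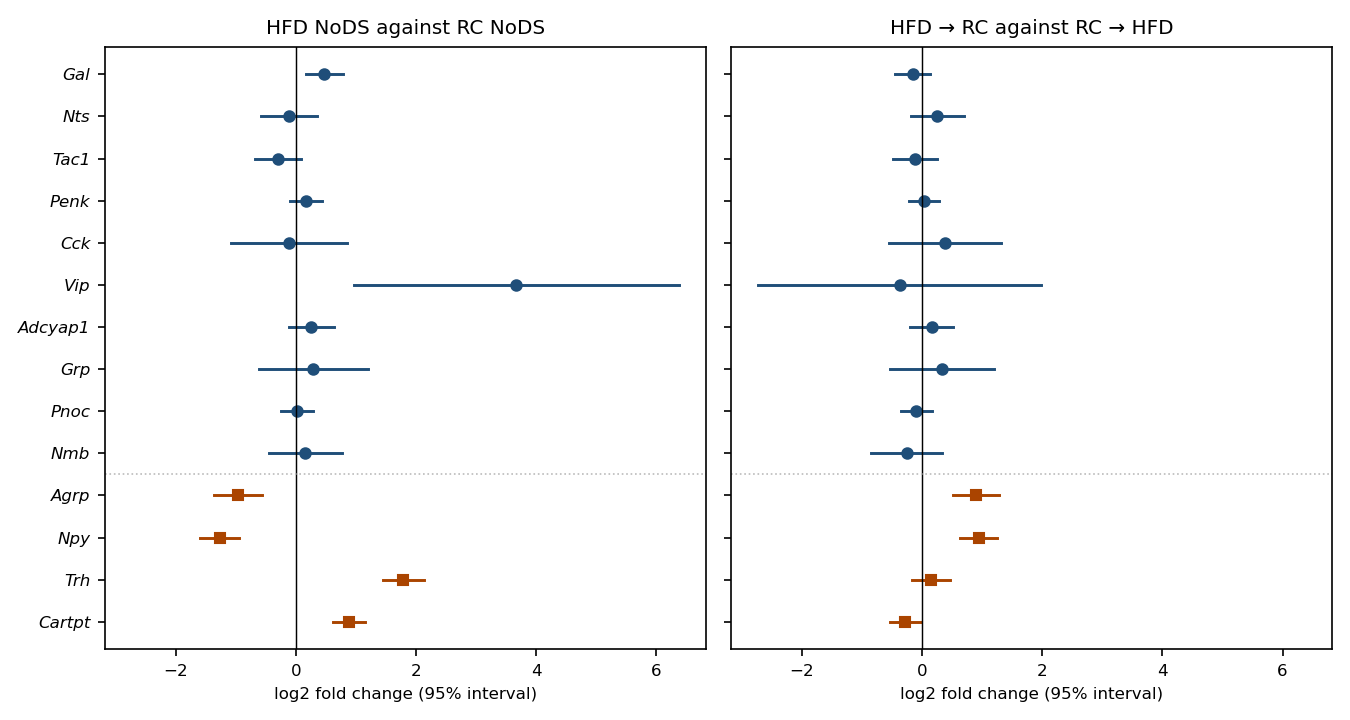
Log2 fold changes of the 10 precursors (circles) and of *Agrp*, *Npy*, *Trh* and *Cartpt* (squares) from the edgeR fit, with 95% intervals, for HFD NoDS against RC NoDS and HFD → RC against RC → HFD. Intervals of the precursors span 0 in both panels except for *Gal* (0.17 to 0.78) and *Vip* (0.96 to 6.37) in the first, neither of which passed the adjusted threshold.

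Elsewhere, unadjusted p under 0.05 came for *Gal*, *Adcyap1*, *Pnoc* and *Vip*. *Gal* in HFD → RC against HFD NoDS had a log2 fold change of -0.44 (SE 0.15, unadjusted p = 0.00649, adjusted p = 0.515 by edgeR), and for HFD minus RC at collection it had 0.32 (SE 0.10, unadjusted p = 0.00505, adjusted p = 0.769). Over all 4 groups *Gal* had an unadjusted p of 0.0127 (adjusted p = 0.508). HFD → RC and RC NoDS, both on RC at collection, had nearly equal *Gal* means (1329 and 1318 reads). In RC → HFD against RC NoDS, after 1 week of HFD, *Gal* had 0.19 (SE 0.14).

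*Adcyap1* in HFD → RC against RC NoDS had a log2 fold change of 0.49 (SE 0.18, unadjusted p = 0.0111, adjusted p = 0.414 by edgeR), the smallest adjusted p of any precursor. With the share of low genes at 0 as a covariate it had 0.41 (unadjusted p = 0.0509, adjusted p = 0.8). That share was 1.12% to 7.22% in RC NoDS and 5.68% to 31.9% in HFD → RC. The interaction for *Adcyap1* was -0.57 (SE 0.25, unadjusted p = 0.032, adjusted p = 0.498): HFD at collection went with a higher mean after earlier RC (1526 against 1236 reads) and a lower mean after earlier HFD (1454 against 1708). *Pnoc* had an interaction of the other sign, 0.39 (SE 0.18, unadjusted p = 0.0375, adjusted p = 0.522), since its means were lower in both switched groups, and 0.30 with that covariate (unadjusted p = 0.106). *Vip* for HFD minus RC at collection had 2.02 under the Low Filter (SE 0.87, unadjusted p = 0.0273, adjusted p = 0.965), and 1.07 without RC → HFD replicate 12. Its lowest estimate there was 0.874, under a setting other than leaving out 1 library. Over all 4 groups its unadjusted p was 0.0417 (adjusted p = 0.683).

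Other peptide precursors in the same libraries passed the same test. Of these, *Trh*, *Npy*, *Cartpt* and *Agrp* had been reported by the study from these libraries, so their calls were known beforehand. Every call among them was of a larger difference than any of *Gal*, and so does not show whether smaller ones could be detected. Of 26 other hypothalamic peptide genes, 16 passed the High Filter. In HFD NoDS against RC NoDS, *Trh* (thyrotropin-releasing hormone; log2 fold change 1.79, SE 0.17), *Cartpt* (0.89, SE 0.13) and *Hcrt* (orexin; 2.71, SE 0.56) were called higher, and *Npy* (-1.26, SE 0.16) and *Agrp* (-0.97, SE 0.20) lower. The study aimed its punches away from the lateral hypothalamus and left out those with too little *Agrp* and *Pomc* relative to *Hcrt*. It reported *Hcrt* as similar across the diet groups, also by RT-qPCR. *Pmch*, the most abundant gene of the lateral hypothalamic list that also holds *Hcrt*, had 0.47 in that pair (SE 0.39, adjusted p = 0.768). The part of lateral tissue in the call of *Hcrt* was not tested. *Npy* was the gene among them called in HFD → RC against RC → HFD (0.94, SE 0.15). *Agrp* had nearly the same estimate there (0.90, SE 0.19) but was not called (adjusted p = 0.3035 by edgeR). The study reported both genes as differing between these groups, also by RT-qPCR. Calls in the other pairs were 3 of 16 (*Trh*, *Npy* and *Agrp*) in RC → HFD against RC NoDS, 2 (*Npy* and *Cartpt*, which held in 25 and 26 of 28 other settings) in HFD → RC against HFD NoDS, and 1 (*Trh*) in HFD → RC against RC NoDS. Of the calls in HFD NoDS against RC NoDS, those of *Trh*, *Cartpt* and *Npy* held in 28 of 28 other settings. *Agrp* held in 23 of 28 and was lost without RC NoDS replicate 1 or 5 or HFD NoDS replicate 19, 21 or 24 (log2 fold change -0.85 to -0.96, adjusted p up to 0.244). *Hcrt* held in 20 of 28 and was lost with limma-voom (log2 fold change 2.25, adjusted p = 0.642), with the share of low genes at 0 as a covariate (2.41, adjusted p = 0.9993), with only the groups compared (2.71, adjusted p = 0.174), and without RC NoDS replicate 1, 2 or 5 or HFD NoDS replicate 20 or 21 (2.17 to 2.71, adjusted p up to 0.288). The SE of *Gal* (0.15) in that pair was no larger than that of *Trh* or *Npy*, so the size of the difference, and not its error, set *Gal* apart from them.

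Spread between libraries of a group was the most marked feature of several precursors. On the log2 scale the within-group SD of *Vip* was 2.63, beside a median of 0.713 for the 2076 genes of like level (mean reads within 2-fold), and 99.95% of these genes had a smaller SD. *Cck* had an SD of 0.979 (median of like genes 0.317, 99.2% smaller), *Tac1* 0.375 (median 0.159, 99.1% smaller), *Adcyap1* 0.347 (median 0.153, 98.8% smaller) and *Gal* 0.288 (median 0.153, 96.8% smaller). *Penk* (91.9% smaller) also varied more than most, whereas *Nts* (57.6%), *Grp* (57.3%), *Nmb* (63.9%) and *Pnoc* (28.5%) varied about as much as, or less than, other genes of their level. Diet group accounted for 35.3% of the sum of squares of log2 *Gal*, 26.4% for *Pnoc*, 23.1% for *Adcyap1* and at most 14.4% for the other 7. With 4 groups in 21 libraries, about 15% is expected where groups do not differ.

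Genes whose library-to-library pattern was most like that of each precursor were found with group means subtracted, over 21 libraries, as a description with no test. Each library is a pool of punches, in which fewer cells of a type cannot be told apart from less RNA per cell. *Tac1* was most like *Hdc* (Pearson r = 0.911, Spearman rho = 0.904, r = 0.895 without the 2 libraries farthest from the median of *Tac1*), the gene of the enzyme that makes histamine. *Wif1* (r = 0.894, rho = 0.873, r = 0.89 without those libraries) and *Cpe* (r = 0.874, rho = 0.81, r = 0.809 without them) followed. RC NoDS replicate 1 had the most of both *Tac1* (2188 reads) and *Hdc* (1626), and replicates 14, 15 and 20, with the least *Tac1* (758, 883 and 762), also had the least *Hdc* (254, 298 and 231). The summed reads of the mammillary markers *Foxb1* and *Barhl1*, of which *Foxb1* was the more abundant, went along with *Tac1* as well (r = 0.707, rho = 0.67, r = 0.645 without the farthest 2). They came to 419 and 269 in HFD → RC replicates 13 and 17, and to 108 or fewer in every other library. Their part in the *Tac1* values was not tested.

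*Cck* was most like *Timeless* (r = 0.92, rho = 0.956, r = 0.916 without the farthest 2), *Cyp2f2* (r = 0.878, rho = 0.893, r = 0.841) and *Pitx1* (r = 0.868, rho = 0.826, r = 0.8), and the next was *Cga* (r = 0.861, rho = 0.856, r = 0.845). *Pitx1* encodes a transcription factor of the pituitary and *Cga* the alpha subunit shared by its glycoprotein hormones. *Cga* ran from 0 reads in HFD NoDS replicate 19, where *Cck* was 70, to 661 in RC → HFD replicate 9, where *Cck* was 242. RC → HFD replicate 8 had 6 *Cga* and 58 *Cck* reads, HFD → RC replicates 15 and 16 had 11 and 19 *Cga* reads with 42 and 66 *Cck* reads, and HFD NoDS replicates 23 and 24 had 577 and 548 with 322 and 412. The 4 libraries with under 20 *Cga* reads were thus those with the least *Cck*.

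All 5 listed pituitary hormone genes (*Cga*, *Tshb*, *Gh*, *Prl* and *Lhb*) were in the table, with *Cga* the most abundant (258.1 reads on average), and their sum correlated with *Cck* at r = 0.85 (rho = 0.832, r = 0.83 without the farthest 2). The sum was 153, 684, 172, 559 and 807 reads in RC NoDS, 49 to 1905 (median 371.0) in RC → HFD, 2816, 144, 81, 57 and 282 in HFD → RC, and 52, 370, 357, 714 and 690 in HFD NoDS. *Gh* reached 2003 reads and *Prl* 841 at the highest, and *Cga*, *Tshb*, *Gh* and *Prl* each fell to 0 somewhere, whereas *Lhb* did not. Pituitary transcripts were thus present in unequal amounts within every diet group, and their part in the spread of *Cck* was not tested.

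*Adcyap1* was most like *Gpr149* (r = 0.908, rho = 0.906, r = 0.882 without the farthest 2), *Ppp3ca* (r = 0.891, rho = 0.861, r = 0.876) and *Car11* (r = 0.889, rho = 0.838, r = 0.837). It went with the summed reads of the ventromedial markers *Nr5a1*, *Fezf1*, *Sox14* and *Vgll2* (r = 0.794, rho = 0.754, r = 0.805) and still more closely with those of the neuronal genes *Snap25*, *Syt1*, *Rbfox3*, *Stmn2* and *Eno2* (r = 0.876, rho = 0.918, r = 0.81). HFD → RC replicate 15 had the most *Adcyap1* (2172 reads), *Nr5a1* (2235) and neuronal reads (50722), and HFD NoDS replicate 23 had 897 *Adcyap1* reads with the fewest *Nr5a1* (583) and neuronal (39183) reads. Neuronal sums were lowest in RC NoDS, as were *Adcyap1* means, at 41739 ± 1740 reads (n = 5), while HFD NoDS averaged 43926 ± 2907 (n = 5), HFD → RC averaged 45628 ± 3478 (n = 5) and RC → HFD averaged 45770 ± 2454 (n = 6). The part of these marker differences in the estimates for *Adcyap1* was not tested.

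*Gal* was most like *Plagl1* (r = 0.843, rho = 0.848, r = 0.823 without the farthest 2), *Pdcl* (r = 0.833, rho = 0.818, r = 0.686) and *Gpx3* (r = 0.796, rho = 0.803, r = 0.748). *Plagl1*, a zinc finger gene that is expressed from the paternal copy, had 2396, 1726, 2524, 2681 and 2337 reads in HFD NoDS, so that replicate 20 was the lowest of that group for both genes. *Gal* ran opposite to the neuronal sum (r = -0.68, rho = -0.65, r = -0.51) and to *Adcyap1* itself (r = -0.65, rho = -0.69, r = -0.55), which was the most negative of the 45 pairs of precursors. It ran along with the summed reads of the striatal list (r = 0.64, rho = 0.77, r = 0.63) and opposite to those of the blood list (r = -0.51, rho = -0.49, r = -0.68). Blood sums averaged 2945.4 reads in RC NoDS, 1308.5 in RC → HFD, 2479.2 in HFD → RC and 1897.4 in HFD NoDS. The part of these marker differences in the *Gal* values was not tested. The most positive pair was *Tac1* and *Penk* (r = 0.67, rho = 0.63, r = 0.537), followed by *Nts* and *Tac1* (r = 0.51, rho = 0.427, r = 0.342).

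**Figure D3:**
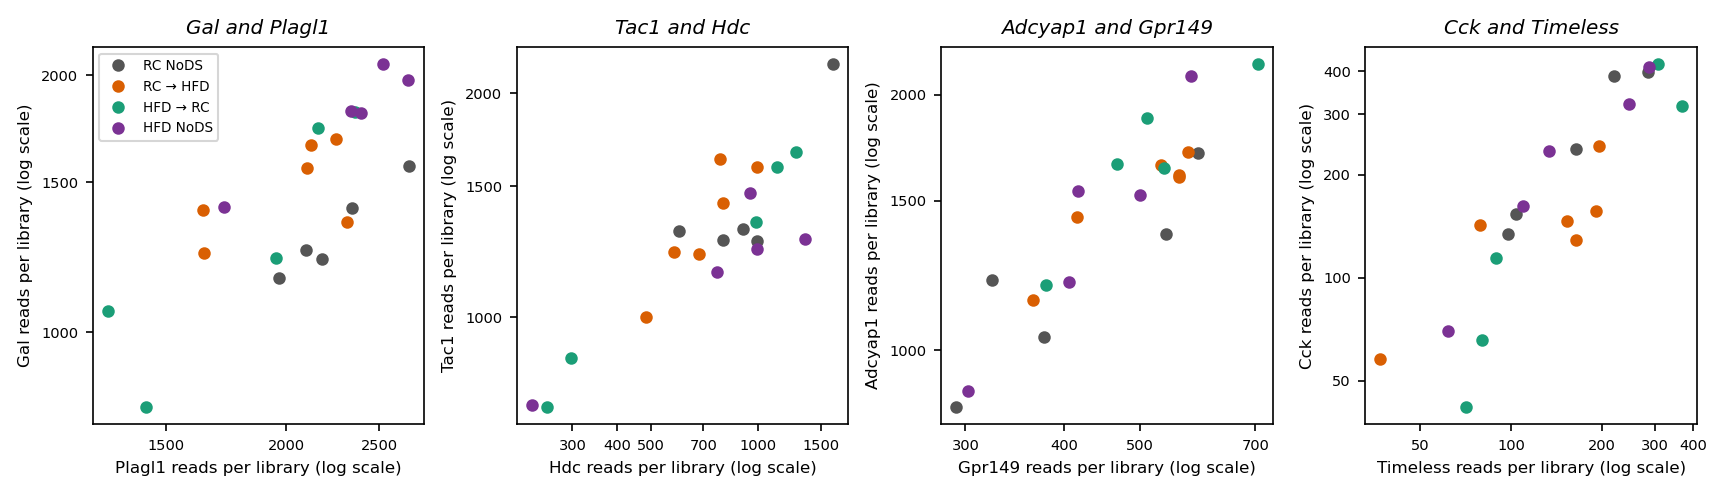
Reads per library, on log axes, of 4 precursors against the gene whose pattern was most like theirs, with each point 1 of 21 libraries coloured by diet group. The points of *Cck* and *Timeless* and of *Tac1* and *Hdc* run along rising bands in which all 4 groups are mixed, and HFD → RC replicate 15 has both the least *Gal* (818 reads) and the most *Adcyap1* (2172).

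*Vip* was most like *Plcl1* (r = 0.81, rho = 0.83, r = 0.718 without the farthest 2), *Plekhb1* (r = 0.799, rho = 0.766, r = 0.743) and *Wrap53* (r = 0.798, rho = 0.755, r = 0.752). The summed reads of 5 suprachiasmatic markers (*Nms*, *Prok2*, *Six6*, *Lhx1* and *Rgs16*, the last the most abundant) went with *Vip* at r = 0.747 (rho = 0.574, r = 0.65). They came to 2078 in RC → HFD replicate 12, 1614 in HFD NoDS replicate 20 and 1512 in HFD → RC replicate 15, the highest sums of the study, in libraries with 160, 405 and 89 *Vip* reads. HFD NoDS replicate 23, with 123 *Vip* reads, had 1096, which was the median of all libraries. The sum of the oligodendrocyte genes *Mbp*, *Mog*, *Mobp* and *Mag*, with *Mbp* the most abundant, went with *Vip* to a like degree (r = 0.667, rho = 0.705, r = 0.653). It was 68224 and 64458 in HFD NoDS replicates 20 and 23, but highest in HFD → RC replicates 14 (98009) and 13 (70396), which had 29 and 14 *Vip* reads, and 42636 in RC → HFD replicate 12. It averaged 46525 ± 18451 (SD, n = 5) in HFD NoDS, 58656 ± 26773 (n = 5) in HFD → RC, 33974 ± 5542 (n = 6) in RC → HFD and 28858 ± 6108 (n = 5) in RC NoDS. The part of either cell type in the *Vip* values was not tested.

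For each of the remaining precursors the highest r was between 0.749 (*Grp*) and 0.823 (*Pnoc*). *Nts* was most like *Supt4h1* (r = 0.794), *4930473A06Rik* (r = 0.794) and *Ufsp2* (r = 0.788), *Penk* was most like *Cpne7* (r = 0.811), *Parp6* (r = 0.788) and *Syt9* (r = 0.779), and *Pnoc* was most like *Blmh* (r = 0.823), *Adamtsl2* (r = 0.775) and *Ccdc94* (r = 0.77). *Parp6* and *Syt9* dropped to r = 0.538 and r = 0.556 for *Penk* without HFD → RC replicate 14 and RC → HFD replicate 10. *Nmb* was most like *Cpa4* (r = 0.8), *Ankle2* (r = 0.785) and *Rhpn2* (r = 0.748), and *Grp* was most like *Zcchc6* (r = 0.749), *Mrpl18* (r = 0.715) and *Rrp1b* (r = 0.695). Of 190 relations between a precursor and a marker sum, the strongest for *Nmb* was with the thalamic list (r = 0.697, rho = 0.755, r = 0.736 without the farthest 2), for *Nts* with the lateral hypothalamic list (r = 0.518, rho = 0.535, r = 0.478), for *Grp* with the arcuate list (r = -0.56, rho = -0.57, r = -0.53) and for *Pnoc* with the ventromedial list (r = -0.50, rho = -0.54, r = -0.39). For *Penk* the strongest was with the arcuate list (r = -0.42, rho = -0.29, r = -0.12). Without its farthest 2 libraries *Penk* was related more closely to the thalamic (r = 0.545) and dorsomedial (r = -0.544) lists, of which the latter had only 1 of its 2 genes in the table. *Pnoc* without its own farthest 2 was related more closely to the lists of tanycytes and ependyma (r = -0.435), pituitary (r = 0.419), and cortex and hippocampus (r = -0.417).

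Receptors of these peptides were read from a list of 21 genes, of which 20 were in the table and 14 passed the High Filter. The PACAP receptor *Adcyap1r1* had 9105 reads on average and the narrowest relative range (8248 to 9782). Sortilin (*Sort1*) and *Ntsr2*, which bind neurotensin, averaged 3667 and 2593 reads, *Ntsr1* averaged 327.7 and the nociceptin receptor *Oprl1* averaged 3309. Opioid receptors *Oprk1*, *Oprd1* and *Oprm1* had means of 438.5, 226.9 and 99.2 reads, the cholecystokinin receptors *Cckbr* and *Cckar* 348.7 and 145.9, and the tachykinin receptors *Tacr1*, *Tacr3* and *Tacr2* 247.0, 170.9 and 1.48. Under the High Filter lay *Galr2* (23.1 reads), *Vipr1* (23.4), *Vipr2* (44.6), *Grpr* (44.9) and *Nmbr* (39.2), while the galanin receptor *Galr1* (66.3) and the bombesin-like receptor *Brs3* (120.7) passed it. Receptors for each of the 10 peptides were thus detected. Of those under the High Filter, *Tacr2* was not tested, and the other 5 were tested under the Low Filter. Over the 6 pairs 0 were called, and 2 of 30 tests had an unadjusted p under 0.05 (smallest adjusted p by edgeR 0.595). The share of all genes at that unadjusted p under the Low Filter is not given here.

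None of the 14 receptors was called by edgeR in any pair, where at most 0.282% of all genes were. Those with an unadjusted p under 0.05 numbered 0, 2, 0, 1, 3 and 1 in the order of pairs above. Among all genes the shares at that p were 7.41%, 5.35%, 6.51%, 7.93%, 8.1% and 7.49%. The smallest p belonged to *Sort1* in HFD → RC against RC NoDS, with a log2 fold change of 0.26 (SE 0.07, unadjusted p = 0.00078, adjusted p = 0.167). DESeq2 put its adjusted p at 0.0607, and over 28 other settings it ran from 0.0502 to 0.69 and passed the threshold in 5. These were DESeq2 and the fits without RC NoDS replicate 3, RC → HFD replicate 12, HFD → RC replicate 16 or HFD NoDS replicate 20. Over the 6 pairs limma-voom called 0 receptors and DESeq2 called 1, which was *Sort1*, among the 72 of 84 tests in which it gave an adjusted p, and 7 of 84 tests had an unadjusted p under 0.05 with edgeR, 9 with limma-voom and 7 with DESeq2. *Brs3* in the same pair had -1.06 (SE 0.43, adjusted p = 0.505), and without HFD → RC replicate 16 it had -1.82 with an adjusted p of 0.0271. *Tacr1*, the receptor of substance P, had 0.40 in HFD → RC against RC → HFD (SE 0.17, adjusted p = 0.899).

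Of 13 genes that cut, fold or package peptide precursors, all passed the High Filter, and 0 were called by edgeR in any pair. An unadjusted p under 0.05 came for 1, 0, 2, 3, 2 and 2 of them. Among all genes the share at that p was 5.35% to 8.1% over these pairs, and at most 0.282% were called in a pair. *Ctsl*, a protease, had 0.22 in HFD NoDS against RC → HFD (SE 0.07, adjusted p = 0.477). Leaving out HFD NoDS replicate 19 gave 0.28 (adjusted p = 0.138). Its means were 3071 and 3103 reads in RC NoDS and HFD NoDS and 2640 and 2646 in RC → HFD and HFD → RC, with an interaction of 0.41 (SE 0.10, unadjusted p = 0.000263, adjusted p = 0.176 by edgeR). This passed the threshold in 4 of 27 other settings, namely DESeq2 (adjusted p = 0.0332) and the fits without HFD NoDS replicate 19 (0.0813) or 20 (0.0855) or HFD → RC replicate 14 (0.119). *Pcsk2*, a convertase that cuts proenkephalin, had 0.23 in RC → HFD against RC NoDS (SE 0.07, adjusted p = 0.574), where DESeq2 gave an adjusted p of 0.0576. Over the 6 pairs this was the only call of DESeq2 among these genes, in the 75 of 78 tests with an adjusted p, and limma-voom called 0. The interaction for *Pcsk2* was -0.35 (SE 0.10, adjusted p = 0.246), and it passed the threshold with DESeq2 (adjusted p = 0.13) and without HFD NoDS replicate 20 (0.104). *Cpe*, the carboxypeptidase that trims the cut peptides and the third gene most like *Tac1*, had 0.16 in HFD → RC against HFD NoDS (SE 0.06, adjusted p = 0.53). *Cpe* lay between 21928 and 30929 reads in all libraries.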

How the data were processed

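The authors aligned reads to mm9 with STAR 2.5.1b, took out ribosomal and mitochondrial reads, used PORT to bring libraries to equal depth and deposited the counts of reads per gene; Picard 2.7.1 is named in the submitters' processing notes. Whether counting used strand is not given in the sources used here. The counts were used as deposited, and all 21 libraries entered the fits except where the text names those used or left out. Within-group pairs of libraries differed by more than sampling noise (chi-square over degrees of freedom 6.89 to 42.0 in 45 pairs). Because reads carried no molecular identifiers, several can come from the same molecule, and a limit from a count of 0 covers counting error only.

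Counts were scaled by TMM and fitted in edgeR 4.0.16 (R 4.3.3; quasi-likelihood, a mean per group, Benjamini-Hochberg adjustment over all genes). DESeq2 1.42.0, limma-voom (limma 3.58.1), the Low Filter, no filter, library size alone, only the groups compared, the share of low genes at 0 as a covariate and leaving out each library were alternatives. Likeness of genes used log2 CPM, marker sums used log2 of summed reads, and spread used log2 of reads plus 1. These were computed with scipy 1.17.1, pandas 2.3.3 and numpy 2.4.6 under Python 3.11.15, with matplotlib 3.10.9 for figures. Exon lengths came from a GENCODE annotation of that build, whereas the study counted reads with Ensembl gene models.

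Members and lists were chosen with earlier results of these data known. Named genes are all members, with fold changes in the first 2 pairs and elsewhere at an unadjusted p under 0.05; genes called in the receptor, processing and other-peptide lists, otherwise the 3 with the smallest p in the 6 pairs; receptors of members; and the 3 genes most like each member. *Cga*, *Nr5a1*, *Pomc*, *Plagl1* in single groups and other single markers were given after their values were seen. The oligodendrocyte and mammillary sums use 4 and 2 genes, chosen after values were seen. Some marker genes and sums are not reported here.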

Additional observations from a re-analysis of the deposited data

Results flagged for a closer look

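In 3 of 40 sets of libraries (10 precursors in 4 groups) a library stood far from the rest of its group. Chance alone gives about 1 in 20, so this count was close to that of chance. *Tac1* had 2188 reads in RC NoDS replicate 1, beside 1267 to 1314 in the rest. *Nts* had 240 reads in HFD NoDS replicate 21, beside 127 to 159 in the rest. *Vip* had 160 reads in RC → HFD replicate 12, beside 0 to 34 in the others, and the same library had the highest sum of suprachiasmatic markers (2078 reads).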

How the results depend on the processing

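No precursor was called under any setting in the comparisons it covered. Fits with only the groups compared cover the 6 pairs, and DESeq2 gave the precursors an adjusted p in 9 of 10 comparisons, without RC → HFD against RC NoDS. The lowest and highest counts of called precursors with 1 library left out were 0 and 0 in each; the smallest adjusted p among these was 0.184. Of 27 fold changes given for precursors, 20 had 1 sign throughout, and 12 of these moved by over 1.5 times with 1 library left out. The other 7 changed sign in 19 of their 195 alternative values, and the cause was not tested. In HFD NoDS against RC NoDS, *Nts* gave 0.00163 without RC NoDS replicate 1, and its values with 1 library left out ran from -0.28 to 0.00163. *Cck* there ran from -0.40 to 0.12, and *Pnoc* ran from -0.066 to 0.077. *Pnoc* gave -0.0028 with library size alone and 0.124 with the share of low genes at 0 as a covariate. In HFD → RC against RC → HFD, *Tac1* ran from -0.24 to 0.020, *Penk* from -0.057 to 0.15, *Cck* from -0.12 to 0.64 and *Vip* from -1.67 to 1.53. Limma-voom gave -0.0056 for *Cck* and 0.20 for *Vip*, and the share of low genes at 0 as a covariate gave 0.045 for *Vip*. That share was 1.12% to 7.22% in RC NoDS and 7.7% to 32.9% in HFD NoDS, and its part in values other than those refitted with it was not tested. With group means kept, *Grp* had the same 3 most like genes, *Tac1*, *Cck* and *Nmb* shared 2 of 3, *Gal*, *Vip*, *Adcyap1* and *Pnoc* shared 1, and *Nts* and *Penk* 0. *Vip* (0 to 405 reads) and *Grp* (17 to 82) had the lowest mean reads of the precursors, and the part of depth in their values was not tested.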
